A study of Mus musculus with 8 samples.

Results

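The data set out what a Cas9 cut inside Supt16 on mouse chromosome 14 added to the sequences recovered next to 1 bait primer. The library of cells given the site 2 sgRNA was set against the library of cells given a non-targeting sgRNA, both primed with the same bait oligonucleotide and neither with ataxin-7. Members were all aligned reads of the 2 libraries on the assembled chromosomes. Reads with the same chromosome, 5′ end and strand were collapsed to 1 distinct junction. This gave 634 distinct junctions, 575 with the targeting sgRNA and 59 with the non-targeting sgRNA, of 11310 in the 8 libraries of the series.

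The series applied translocation sequencing to Neuro-2a, a mouse neuroblastoma line, at 2 bait sites on chromosome 14. In every group cells received the plasmid PX458, which carries Cas9 of Streptococcus pyogenes, an sgRNA and GFP. GFP-positive cells were sorted at 48 h, and their DNA was sheared to 750 bp. Each library was a pool of 3 transfections with no replicate library. A test between 2 libraries therefore compares those libraries and not the conditions. The groups used here were the site 2 sgRNA without ataxin-7, the non-targeting sgRNA with the site 2 primer, and, for comparison, the site 2 sgRNA with ataxin-7 carrying 10 or 92 glutamines (10Q and 92Q). The corresponding site 1 libraries without ataxin-7 were used where named. Cas9 was present in the non-targeting group too.

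Translocation sequencing extends a biotinylated primer out of a known locus and reads whatever DNA follows it. On an uncut chromosome the read continues into the neighbouring sequence. When Cas9 has cut beside the primer, end joining can seal the bait end directly to its partner, with or without lost bases, or join it to another broken end. Resected or widened breaks near the cut, inversions, and joins to other parts of the same or other chromosomes then appear as reads that start elsewhere. Supt16 encodes the large subunit of FACT, a histone chaperone that takes apart and rebuilds nucleosomes ahead of and behind polymerases.

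The 2 designed sequences define what could be recovered. They are shown because the sgRNA sets where the cut falls and the primer sets the end from which each junction is read. Capitals in the sgRNA mark its last 3 bases, which lie between the usual Cas9 cut and the PAM.
site 2 sgRNA: ctcgcagccctccaccgTAA
site 2 bait primer: ggtttcccctccgctcttta
Both are 20 nt long. The cut coordinate is not given in the sources used here, and the sgRNA was not placed on the genome. Distances are therefore counted from the bait end, defined as the commonest 5′ end of the on-cut reads in the non-targeting library. It lay at chromosome 14 position 52181662 (mm10, plus strand), inside the body of Supt16 (52160419 to 52197239), 21243 bp from the lower and 15577 bp from the upper end of the gene. The gene table holds gene bodies without exons or UTRs. Downstream means increasing coordinate, the direction in which the bait is read.

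The targeting library held 1527 reads, 1341 of them in the authors' on-cut list and 186 in the off-cut list. The non-targeting library held 986 reads, 932 on-cut and 54 off-cut. Reads per distinct junction were 2.66 and 16.7. A junction with a single read made up 415 of 575 (72.2%) and 51 of 59 (86.4%). The reads carry no molecular identifiers and the lists are not scaled to sequenced reads, so intervals cover counting error only. Differences in sequencing effort cannot be told apart from differences in the number of joins.

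At the bait end, reads of the non-targeting library piled up at 1 position, whereas those of the targeting library were spread over the bases downstream. Exactly at the bait end started 917 of 986 non-targeting reads (93.0%, 95% Clopper-Pearson interval 91.2 to 94.5). With the targeting sgRNA 113 of 1527 did so (7.40%, 6.14 to 8.83). The 10Q library had 6 of 118 reads there (5.08%, 1.89 to 10.7) and the 92Q library 20 of 305 (6.56%, 4.05 to 9.95). All 3 targeted libraries thus lay far below the non-targeting one. The bait end was defined from the non-targeting reads, so this contrast is partly set by definition. Of the targeting and 92Q reads at the bait end, 2 read names were listed in both libraries, and without them the counts were 111 and 18.

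The commonest 5′ end with the targeting sgRNA lay 18 bp downstream, at position 52181680. It held 145 of 1527 reads (9.50%, 8.07 to 11.1). The non-targeting library had 0 of 986 reads there, which allows a share of up to 0.304% taken as 3 counts of the total, or 0.373% as the Clopper-Pearson limit. In the 92Q library this was also the commonest end, with 25 of 305 reads (8.20%, 5.37 to 11.9), and the 10Q library had 3 of 118 reads there (2.54%, 0.527 to 7.25). An end 21 bp downstream came next, apart from the bait end itself, with 54 targeting reads (3.54%), 0 non-targeting reads, 2 reads with 10Q and 4 with 92Q. Further ends in the targeting library held 31 reads at 25 bp, 26 at 39 bp, 23 at 11 bp, 23 at 40 bp, 21 at 38 bp and 20 at 29 bp. The 92Q library had 8 reads at 39 bp. The 10 commonest positions, the bait end included, held 474 of the 746 targeting reads between the bait end and 60 bp downstream of it or just before it (63.5%).

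**Figure D1:**
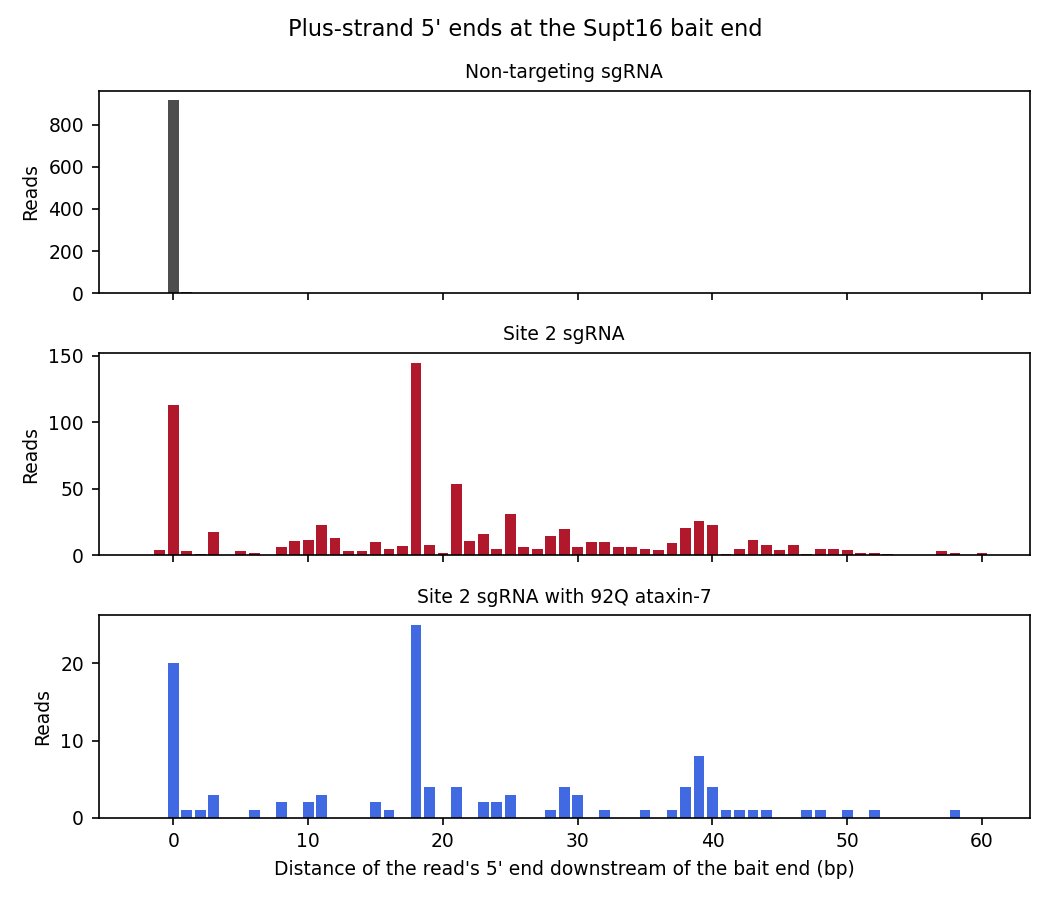
Number of plus-strand reads (y axis, a separate linear scale per panel) by the distance of their 5′ end downstream of the bait end in bp (x axis), for the non-targeting, the site 2 sgRNA and the 92Q library. Bars are reads at 1 position. The non-targeting library stands at 917 reads at 0 with no bar at 18 bp, while the site 2 sgRNA and 92Q libraries are highest at 18 bp, with 145 and 25 reads.

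By interval, 44 targeting reads started 1 to 9 bp downstream of the bait end, 76 at 10 to 17 bp, 324 at 18 to 30 bp and 185 at 31 to 60 bp. The non-targeting library had 9 reads at 1 to 9 bp and 0 in each of the 3 farther intervals. Within these 60 bp, its reads downstream of the bait end thus all started at 1 to 9 bp. The 92Q library followed the targeting pattern with 8, 8, 48 and 28 reads, and the 10Q library had 0, 0, 8 and 8. Targeting reads occupied 54 of the 60 positions downstream of the bait end, non-targeting reads 4, 10Q reads 12 and 92Q reads 33. Every one of the 33 positions of the 92Q library and 11 of the 12 of the 10Q library also held a targeting read (100% and 91.7% of their own, 61.1% and 20.4% of the targeting positions). Since nearly all positions were occupied, a match of this kind between libraries carries little information, and distinct junctions near the bait end are limited by the number of positions.

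Within 20 bp of the bait end, 279 of 392 targeting reads (71.2%, 66.4 to 75.6) and 12 of 929 non-targeting reads (1.29%, 0.669 to 2.25) started elsewhere than exactly at it. The shares lay 69.9 percentage points apart, and 32.0 points apart with the 10Q library (3 of 9 reads) in place of the targeting one. The non-targeting reads themselves defined the bait end, so these values are a description and no test is read from them. The aligned length also differed. A length of 162 bp, the commonest in both libraries, was held by 742 of 917 non-targeting reads at the bait end (80.9%) and by 64 of 113 targeting reads there (56.6%). Of the 145 targeting reads at 18 bp, 50 had that length (34.5%), and the whole set spread over 14 lengths from 139 to 163 bp. Bowtie2's mapping quality, which falls where a read matches the genome poorly or in several places, was 30 or more in 428 of 917 non-targeting reads at the bait end (46.7%). It was 30 or more in 101 of 145 targeting reads at 18 bp (69.7%), and in 782 of 1214 targeting reads within 10 kb but off the bait end (64.4%). At 1 single position, the bait end, qualities ran from 0 to 42 in both libraries.

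Beyond the first bases, the targeting library held a band of junctions downstream in Supt16 of which the non-targeting library showed 1. Within 1 kb of the bait end there were 310 distinct junctions with the targeting sgRNA (exact Poisson 95% interval 276 to 347) and 10 without (4.80 to 18.4), a ratio of 31 (16.6 to 65.3). Between 1 and 10 kb there were 80 (63.4 to 99.6) and 0 (0 to 3.69). The 80 were 26.7 times a floor of 3 junctions, which is not a lower limit of the ratio. The non-targeting junctions within 10 kb were few and close. Of 10, 7 lay on the plus strand within 4 bp of the bait end, 1 on the plus strand at 505 bp, and 2 on the minus strand at 227 and 230 bp, both with a mapping quality of 0.

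**Figure D2:**
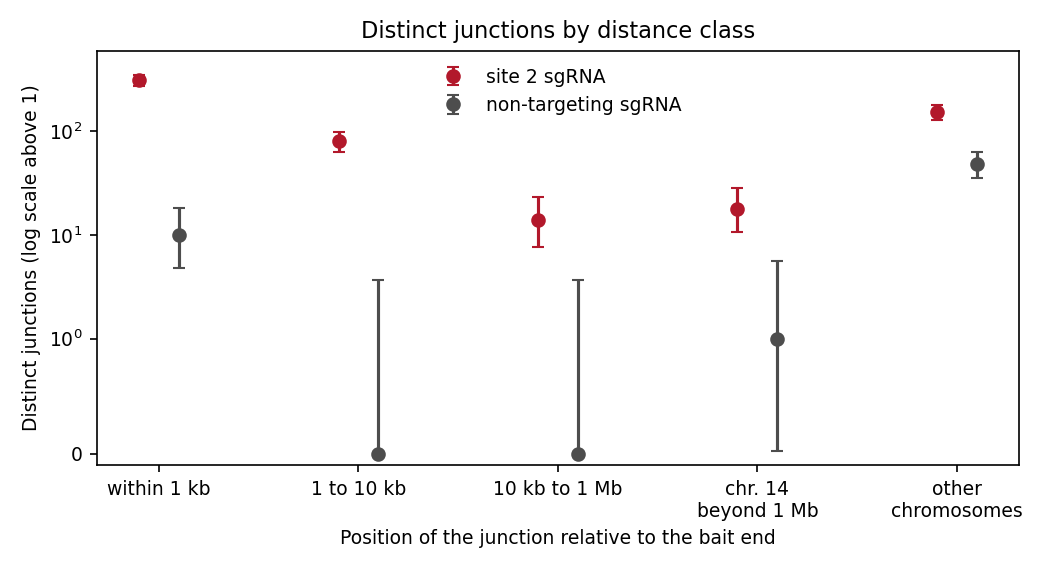
Distinct junctions (y axis, log scale above 1 and linear below) by distance from the bait end (x axis) with the site 2 sgRNA and the non-targeting sgRNA. Points are counts in 1 library each and bars are exact Poisson 95% intervals for counting error; the counts are 310 against 10 within 1 kb and 153 against 48 on other chromosomes.

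Set against the interchromosomal junctions of the same library, those within 10 kb were over-represented with the targeting sgRNA. They made up 390 of 543 (71.8%, 67.8 to 75.6) with it and 10 of 58 (17.2%, 8.59 to 29.4) without it, 54.6 percentage points apart (adjusted p = 2.40e-15 by two-sided Fisher's exact test, Benjamini-Hochberg over 10 tests). The gap was 28.3 points without junctions that lay within 1 kb of one in the other library (60 of 212 against 0 of 47). With the 10Q or the 92Q library as the targeted one it was 21.7 points (37 of 95) and 35.2 points (106 of 202), and all 3 values passed the same exact test (adjusted p = 5.93e-06, 0.0213 and 5.69e-06). With each read counted in place of each junction the order turned, at -5.50 points (adjusted p = 3.18e-06 by Fisher's exact test), since 917 non-targeting reads lay at the bait end. That p-value treats reads at 1 position as independent, although they may be copies. With the bait-end reads left out and each remaining read counted, 1214 of 1376 targeting and 15 of 68 non-targeting reads lay near. The difference was 66.2 points, in a setting chosen after seeing the data. The non-targeting reads defined the bait end, so leaving it out removes most of their near reads. No test is read from this value.

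The downstream junctions thinned steadily with distance. On the plus strand the targeting library had 900 distinct junctions per kb at 1 to 60 bp, 600 at 61 to 200 bp, 317 at 201 to 500 bp and 102 at 501 to 1000 bp. The density was then 29 per kb at 1 to 2 kb, 9.67 at 2 to 5 kb and 2.00 at 5 to 10 kb. Each position counts once, so no density can exceed 1000 per kb, and the first window lay near that limit. It held 629 reads, against 250 at 61 to 200 bp. In numbers of junctions, the windows from 61 bp on held 84, 95, 51, 29, 29 and 10. The 92Q library thinned likewise, from 550 per kb in the first window through 179, 66.7, 24, 2.00 and 1.33 to 0.20 per kb in the last. The 10Q library went from 200 through 57.1, 36.7, 2.00, 1.00 and 0.667 to 0. These densities are not scaled to the number of reads, 1527 in the targeting, 305 in the 92Q and 118 in the 10Q library. Single positions also recurred past 60 bp in the targeting library, with 17 reads at 79 bp, 16 at 107 bp, 11 at 65 bp, 8 at 119 bp and 8 at 191 bp.

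**Figure D3:**
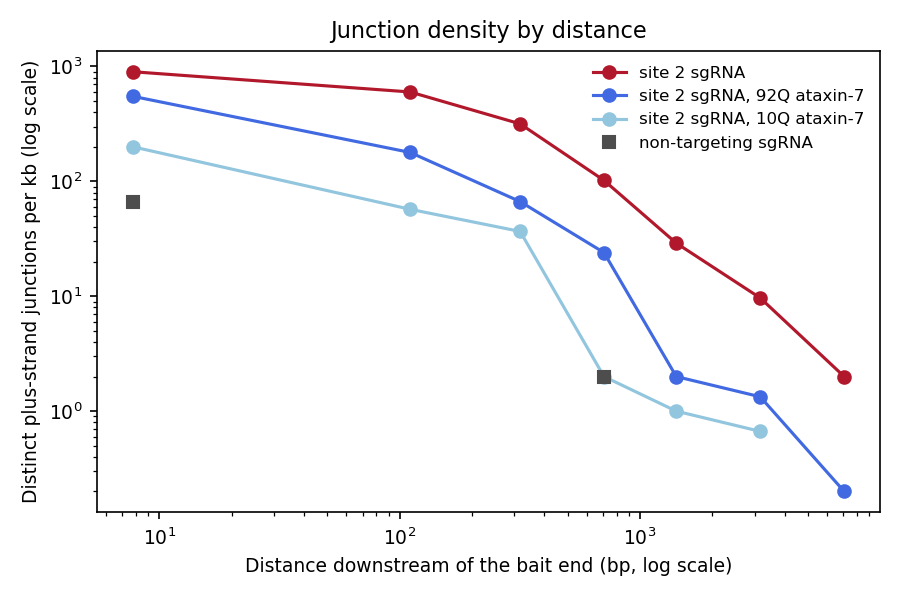
Distinct plus-strand junctions per kb (y axis, log scale) against the distance downstream of the bait end in bp (x axis, log scale, each point at the geometric middle of its window). Windows with 0 junctions are not drawn. The site 2 sgRNA library lies above the 92Q and 10Q libraries in every window, falling from 900 to 2.00 per kb, and the non-targeting library has 2 points. Densities are not scaled to reads, of which the site 2 sgRNA, 92Q and 10Q libraries hold 1527, 305 and 118.

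Most near junctions kept the strand of the bait. Of the 390 within 10 kb with the targeting sgRNA, 353 were plus-strand junctions at or downstream of the bait end (90.5%), the arrangement that loss of the intervening bases gives. Their median distance was 314 bp (quartiles 113 and 750 bp). Each position counted once in this median, although 113 reads lay at the bait end and 629 at 1 to 60 bp downstream. The farthest of these junctions lay at 8541 bp. A further 28 lay on the minus strand, which joins the bait in inverted orientation: 19 upstream, at 159 to 9178 bp with a median of 860 bp, and 9 downstream, at 210 to 2166 bp. Of these 28, 17 had a mapping quality of 30 or more. Of the 9 downstream minus-strand junctions, 4 lay at 210, 215, 225 and 230 bp, where the 2 minus-strand junctions of the non-targeting library also lay. Plus-strand junctions upstream numbered 9, of which 8 lay at 322 to 8524 bp and 1 at 1 bp from the bait end.

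**Figure D4:**
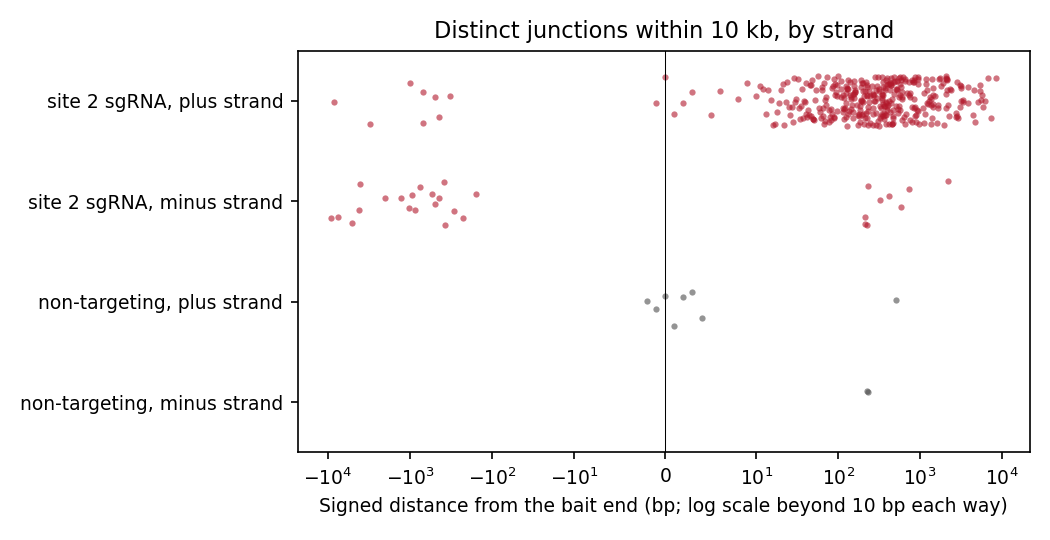
Each point is 1 distinct junction within 10 kb, placed by its signed distance from the bait end in bp (x axis, log scale beyond 10 bp each way, upstream to the left) and by library and strand (y axis, with vertical scatter for visibility only). With the site 2 sgRNA 353 of 390 junctions lie on the plus strand at or right of the line; the non-targeting library has 8 plus-strand and 2 minus-strand junctions.

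The plus-strand share within 10 kb was 362 of 390 (92.8%, 89.8 to 95.2) with the targeting sgRNA and 8 of 10 (80.0%, 44.4 to 97.5) without. The difference of 12.8 points did not pass the two-sided Fisher's exact test (adjusted p = 0.187), and 10 junctions leave it undetermined at this depth. Its sign turned where a mapping quality of 30 was required (-5.72 points, 280 of 297 against 2 of 2) and where reads were counted (-1.90 points). The share of near junctions within 100 bp was also compared between the targeting and the non-targeting library. Distance was counted from the non-targeting library's own commonest end, so no shift outward is read from this comparison. Within 100 bp lay 86 of 390 (22.1%, 18.03 to 26.5) and 7 of 10 (70.0%, 34.8 to 93.3), a difference of -47.9 points (adjusted p = 0.00650 by two-sided Fisher's exact test). That test was no longer passed when positions within 5 bp were merged (-41.5 points, adjusted p = 0.0625 by Fisher's exact test). Nor was it with a mapping quality of 30, at 75 of 297 against 1 of 2 (-24.7 points, adjusted p = 0.741 by Fisher's exact test). It was also not passed with the 10Q or 92Q library as the targeted one (-18.6 and -29.4 points), within 500 bp in place of 100 bp (-25.9 points), or for reads without those at the bait end (-20.1 points).

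The other site 2 libraries cut with the same sgRNA had a like near pattern at smaller numbers. The 92Q library had 106 junctions within 10 kb, of which 98 were downstream on the plus strand (92.5%) with a median of 131.5 bp, and the 10Q library 37, of which 36 were (97.3%) with a median of 91.0 bp. Their near junctions matched a targeting junction exactly in 69 of 106 (65.1%) and 26 of 37 (70.3%) instances, or 17.7% and 6.67% of the targeting junctions. Of the 10 non-targeting ones 7 matched (70.0%, or 1.79% of the targeting junctions). The medians differ between libraries of 118 to 1527 reads and were not compared at equal depth.

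At site 1, inside Dach1, the corresponding library, cut but without ataxin-7, was larger, with 8812 reads and 3873 junctions against 1527 and 575, and the values below were not compared at equal depth. There 1315 of 1668 junctions within 10 kb of that bait end (78.8%) were downstream on the plus strand, with a median of 1287 bp against 314 bp at site 2. Between 61 and 200 bp the site 1 library held 4 plus-strand junctions, where site 2 held 84. The site 1 library also had more minus-strand junctions, 232 upstream and 89 downstream against 19 and 9. The odds of a near over an interchromosomal junction were 12.2 times higher with than without the targeting sgRNA at site 2 and 5.83 times higher at site 1. The ratio of those odds ratios, 2.10, did not pass an exact test of equal odds ratios (p = 0.0945, adjusted p = 0.118). It turned to 0.388 when reads were counted (exact test, adjusted p = 6.18e-07), and was 3.68 in a 1 kb window (exact test, adjusted p = 0.0148).

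Farther along chromosome 14, between 10 kb and 1 Mb, the targeting library held 14 junctions (7.65 to 23.5) and the non-targeting library 0 (0 to 3.69). The 14 were 4.67 times a floor of 3 junctions, which is not a lower limit of the ratio. All but 1 of these 14 lay inside protein-coding gene bodies. Supt16 itself held 7, at 10406, 10681 and 12438 bp upstream and at 10552, 10947, 11749 and 11990 bp downstream. Chd8, the next gene downstream (52198151 to 52258042), which encodes a chromodomain helicase, held 4, at 17269, 17881, 28874 and 38999 bp. Of these the first had 2 reads and a mapping quality of 42, and the others had 1 read each and qualities of 8, 8 and 3. The junction at 28874 bp also lay in the lncRNA Gm26590, and 1 more lay 453 bp outside Chd8. On the upstream side Rpgrip1, a gene for a photoreceptor cilium protein, held 1 at 33393 bp. A position 163474 bp upstream lay in both Zfp219 and Tmem253. Both had a mapping quality of 0.

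In this range 8 junctions were on the plus strand and 6 on the minus strand, and 9 lay downstream and 5 upstream, whereas 353 of 390 within 10 kb were downstream on the plus strand. That change in arrangement with distance was not tested. The 92Q library held 3 junctions in the range, 2 of them in Chd8 (16807 and 46016 bp, qualities 42 and 40), and the 10Q library held 1, in Tppp2. Against interchromosomal junctions, the range made up 14 of 167 (8.38%, 4.66 to 13.7) with the targeting sgRNA and 0 of 48 (0 to 7.40%) without. The difference of 8.38 points did not pass after adjustment (p = 0.0432, adjusted p = 0.0719 by two-sided Fisher's exact test), and passed when reads were counted (8.99 points, adjusted p = 0.0375 by Fisher's exact test).

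Beyond 1 Mb on chromosome 14 there were 18 junctions with the targeting sgRNA and 1 without, a ratio of 18 (2.84 to 750). The 10Q and 92Q libraries had 8 each. Of the 18, 11 lay upstream and 7 downstream, 7 on the plus and 11 on the minus strand, and 11 had a mapping quality of 30 or more. No other autosome nor chromosome X held as many in the targeting library, where the lowest, median and highest counts were 3, 8 and 17. This was not so in the other 2 cut libraries. With 92Q chromosome 11 held 10 and chromosome 7 held 9, and with 10Q chromosome 10 held 8. These counts are not scaled to chromosome length. Relative to interchromosomal junctions, those beyond 1 Mb made up 18 of 171 (10.5%, 6.36 to 16.1) with the targeting sgRNA and 1 of 49 (2.04%, 0.0517 to 10.9) without. The difference of 8.49 points did not pass the two-sided Fisher's exact test (adjusted p = 0.117).

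Grid1, which encodes the delta-1 glutamate receptor subunit, held 2 of the 18 (positions 34974949 and 35422152, 1 read each, minus strand, quality 42). It spans 763 kb (34820003 to 35583387), the non-targeting and 10Q libraries had 0 junctions in it, and the 92Q library had 1. Other coding genes with 1 junction each were Arhgef3, Cacna2d3, Psmc6 and Hs6st3, of which Cacna2d3 encodes a calcium channel subunit and Psmc6 a proteasome ATPase; these 4 were named after their values were seen. The position with the most reads, 2 at 34108960, lay 2716 bp from the pseudogene Gm24998 and had a quality of 0. The single non-targeting junction lay in Prss51, also named after its value was seen. The lncRNA Gm35218, named after its values were seen, held 1 targeting and 1 92Q junction, at 72777543 and 72784504.

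On other chromosomes the 2 libraries were closer in number, 153 against 48, a ratio of 3.19 (2.29 to 4.51). Within 1 kb of the bait end the ratio was 31. The 10Q and 92Q libraries had 58 and 96. The targeting junctions fell on 20 chromosomes, with most on chromosome 8 (17), chromosome 4 (14), chromosome 1 (13) and chromosome 10 (11). The non-targeting junctions fell on 13, with most on chromosome 5 (7) and chromosome 4 (6). Chromosome 11 had 4 in each. Chromosomes 6, 9, 16, 18, 19, X and Y held 0 non-targeting junctions, and 8, 10, 3, 3, 3, 3 and 1 targeting ones. The spread over chromosomes was not compared at equal numbers of junctions, 153 against 48 in all.

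**Figure D5:**
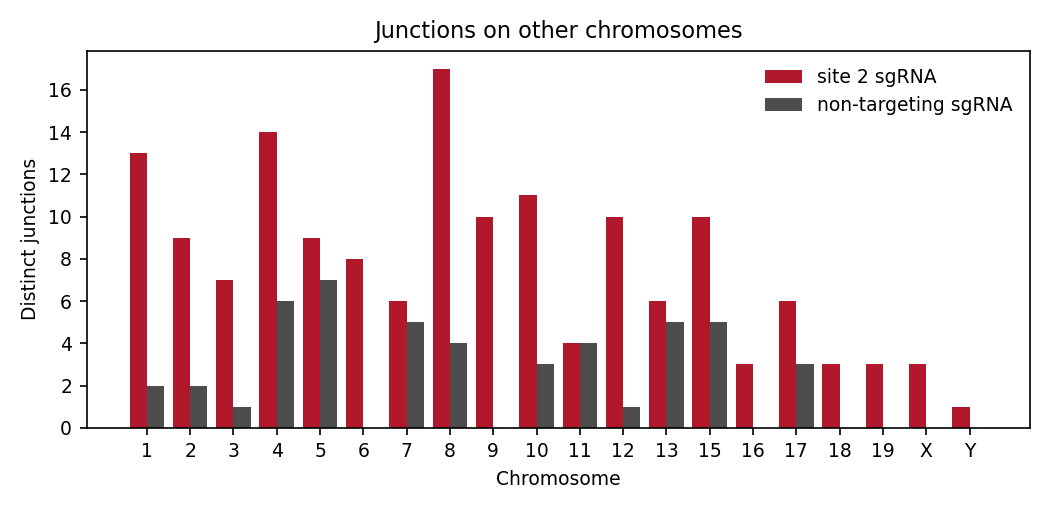
Distinct junctions on chromosomes other than 14 (y axis, counts in 1 library each, not scaled to chromosome length) by chromosome (x axis) with the site 2 sgRNA and the non-targeting sgRNA. The site 2 sgRNA library is highest on chromosome 8 with 17 junctions, and on chromosome 11 both libraries have 4.

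The interchromosomal junctions of the 2 libraries were compared by gene context, strand, mapping quality and reads per junction, with wide intervals for the 48 non-targeting ones. Inside protein-coding gene bodies lay 68 of 153 (44.4%, 36.4 to 52.7) with the targeting sgRNA and 22 of 48 (45.8%, 31.4 to 60.8) without. Within 10 kb of a protein-coding gene start lay 21 of 153 (13.7%, 8.70 to 20.2) and 7 of 48 (14.6%, 6.07 to 27.8), a difference of -0.858 points (adjusted p = 1 by two-sided Fisher's exact test). Plus-strand junctions made up 74 of 153 (48.4%) and 26 of 48 (54.2%). A mapping quality of 30 or more was reached by 61 of 153 (39.9%, 32.1 to 48.1) and 28 of 48 (58.3%, 43.2 to 72.4), a difference of -18.5 points that did not pass after adjustment (adjusted p = 0.0608 by two-sided Fisher's exact test). Single-read junctions were more frequent with the targeting sgRNA, 151 of 153 (98.7%, 95.4 to 99.8) against 43 of 48 (89.6%, 77.3 to 96.5), by 9.11 points (adjusted p = 0.0231 by two-sided Fisher's exact test). That difference fell to 1.93 points and did not pass with a mapping quality of 30 (adjusted p = 0.761 by Fisher's exact test).

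Few interchromosomal junctions recurred. In the targeting library 2 pairs lay within 10 kb of each other, and in the non-targeting, 10Q and 92Q libraries 0 did. Cfap97d2 on chromosome 8 (13705750 to 13744599), overlapped by the lncRNA Gm46032, held 2 targeting junctions, with qualities of 2 and 0. The position with most reads was in Megf11, a gene for a transmembrane protein with EGF-like repeats, at chromosome 9 position 64403676, where 9 reads had a best quality of 0. Next came Zrsr2, which encodes a splicing factor, on chromosome X with 2 reads and a quality of 42. Il1r1 and Kif1a, the interleukin-1 receptor and an axonal motor, held 1 read each with a quality of 42, in a tie with many other single-read junctions that was broken by position alone. In the non-targeting library 5 positions had 2 reads: 20029 bp from Dab2 (quality 42), nearest to the pseudogene Gm13321 (quality 24), and in Ncf1 (8), Olfr379-ps1 (2) and Dnah9 (0).

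Exactly 1 interchromosomal position was shared by the targeting and the non-targeting library, inside Map3k5 at chromosome 10 position 20133793 on the plus strand, with 1 read and a quality of 42 in each. Map3k5 encodes a stress-activated kinase and was named after its values were seen. Within 1 kb of a non-targeting junction lay 1 of the 153 targeting junctions (0.654%), of a 92Q junction 4 (2.61%) and of a 10Q junction 0. An identical position was shared with the 92Q library once, nearest to Crhr1 on chromosome 11, and with none of the 4 site 1 libraries. Within 1 kb of a junction of the site 1 10Q, 92Q, sgRNA-only and non-targeting libraries, which used another primer, lay 3, 2, 2 and 0 of the 153. The level of overlap that chance gives was not tested.

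Gene lists were read at distances over 10 kb. Of 15 genes of FACT and partner chromatin factors in the gene table, 2 held targeting junctions, Supt16 with 7 and Chd8 with 4, and 0 held non-targeting ones. Supt16 is the bait gene and Chd8 its neighbour, so position fixes both. Of 30 end joining and break response genes 0 held a junction in either library, and 1, Prkdc, held one with 10Q. Of 27 long neural genes 1, Ptprd, a receptor phosphatase gene, held 1 targeting junction and 0 held a non-targeting one. The 202 T cell receptor alpha and delta segments and the 42 olfactory receptor genes of chromosome 14, which lie on the bait chromosome, held 0 in both. The gene entry Tcra, outside the segment list and named after its value was seen, held 1 targeting junction at 53617031 with a quality of 0. For scale, 101 of all 49603 genes held a targeting junction at over 10 kb and 30 held a non-targeting one.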

How the data were processed

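The authors deposited an on-cut and an off-cut list of aligned reads per library; for the rule that parts them, the filters and any duplicate removal, no account was given in the sources used here. The deposited value is a score per read, the mapping quality. Bowtie2, mm10 and mm9 are named per the submitters' processing notes, with no version or role; coordinates were read as mm10, to which names of unplaced sequences in the lists belong.

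Both lists of a library were joined, and the 5′ end of each read was the junction. Gene bodies came from a RefSeq gene table of GRCm38.p6 with 49603 genes used, 21779 protein-coding; entries below 3 Mb on any chromosome except Y were dropped. Shares carry Clopper-Pearson and counts Poisson 95% intervals, for counting error only. There were 10 two-sided exact tests (9 Fisher's, 1 of equal odds ratios), Benjamini-Hochberg adjusted, run in Python 3.11.15 with SciPy 1.17.1, NumPy 2.4.6 and Matplotlib 3.10.9 and tested on simulated data. The test of reads at the bait end stayed in the adjustment but is not read, since the bait end was defined from those reads; adjusted over the other 9 tests, 0 calls changed. Alternatives were the unit counted, merging within 5 bp, a mapping quality of 30, at least 2 reads, leaving out shared positions, other windows and gene sets, and the 10Q or 92Q library as the targeted one.

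Named genes were the bait gene, genes with a junction at 10 kb to 1 Mb, genes with at least 2 junctions beyond that, the gene at the 5 junctions with most reads per library, and list members with a junction. Members, lists, tests and this rule were chosen with earlier results of these data known. Libraries were grouped by their labels.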

Additional observations from a re-analysis of the deposited data

Results flagged for a closer look

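Outside the assembled chromosomes, which no comparison used, the targeting library held 3 reads and the non-targeting library 0. Of the 3, 1 aligned to the mitochondrial genome and 2 to the unplaced sequence JH584304, with mapping qualities of 1 and at best 2.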

How the results depend on the processing

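No paired analysis was possible because each group is 1 pooled library, so that the groups share a single replicate number, and for the same reason no replicate could be left out. Of 80 alternatives over 10 tests, 56 neither turned the direction nor crossed the threshold, counting the plus-strand share with at least 2 reads, where the difference was 0 (155 of 155 against 3 of 3). All adjusted p-values here are from exact tests, and those for counted reads treat possible copies as independent. In these exact tests, counting reads reversed the near against interchromosomal difference to -5.50 points (adjusted p = 3.18e-06), the plus-strand difference to -1.90 (8.09e-05) and the ratio between sites to 0.388 (6.18e-07). It moved the 10 kb to 1 Mb difference to 8.99 (0.0375) and the mapping quality difference to -16.4 (0.0484), both then past the threshold. Leaving out bait-end reads as well was a setting chosen after seeing the data. The near difference was then 66.2, the plus-strand one 11.0 and the ratio between sites 1.73. No test is read from these values, since the non-targeting reads defined the bait end. The share within 100 bp differed by -20.1 points and no longer passed (0.203).

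The difference in the share within 100 bp also stopped passing with a mapping quality of 30 (-24.7), merging (-41.5) and at least 2 reads (-54.8). It did so too with the 10Q or 92Q library as the targeted one (-18.6 and -29.4) and a 500 bp window (-25.9). At a mapping quality of 30 it rested on 1 of 2 non-targeting junctions, and with at least 2 reads on 3 of 3. In each setting distance was still counted from the non-targeting library's own commonest end, so no shift outward is read from this difference. A mapping quality of 30 reversed the plus-strand difference to -5.72 (280 of 297 against 2 of 2), which did not pass the exact test. The mapping quality difference became 30.0 points with at least 2 reads (1 of 2 against 1 of 5) and -30.7 with 10Q, which passed (0.00827). The gene-start difference, never past the threshold, turned positive with a mapping quality of 30 (2.40), with 10Q (6.11), with 92Q (8.33), at 2 kb (2.49) and with all RefSeq genes (0.735). The single-read difference stopped passing with a mapping quality of 30 (1.93), 10Q (8.69) and 92Q (8.33). The ratio between sites was 3.68 in a 1 kb window, past the threshold (0.0148). Unless given above, the cause was not tested. Depth limits every test that rests on the 10 near or 48 interchromosomal non-targeting junctions.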
